A study of Mus musculus with 20 samples.

Results

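Lonp1, the ATP-driven protease of the mitochondrial matrix, and 9 further genes of mitochondrial protein quality control were described in tumours of the mouse pancreas. Lonp1 was chosen because its level was low, with little spread, in both genotypes with a floxed Arf allele. The other 9 genes were listed by function as proteases (Clpp, Clpx, Yme1l1, Afg3l2 and Spg7) or chaperones (Hspd1, Hspe1, Hspa9 and Trap1). They are 10 of the 20636 genes measured, and each of the 10 passed the minimum level for testing, as did 16648 genes in all.

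RNA-seq was done on pancreatic ductal adenocarcinomas that arose from acinar cells, with 5 tumours of each of 3 genotypes. All mice carried Rosa26 LSL-tdTomato/LSL-tdTomato, a fluorescent reporter, and Ptf1aCreER, a tamoxifen-dependent Cre under the control of an acinar cell gene. KPAT mice also had Trp53 fl/fl and Arf fl/fl, KAT mice had Arf fl/fl alone, and KPT mice had Trp53 fl/fl alone. Each mouse received 5 mg of tamoxifen by gavage on 3 days when 8 to 10 weeks old and was kept until morbid, and 5 samples of mice with neither floxed allele (KT) are not analysed here. The libraries are of whole tumours, so they hold RNA of host cells in which Cre did not act. Levels are the authors' normalised read counts, in which 1 unit was worth 19.478 reads on average, and the depth was 14696138 to 26248484 reads per library. KPT 1 and KAT 1 had stood apart in an earlier analysis for intestinal and acinar genes, and KPT 3, KAT 2 and KPAT 5 for ribosomal RNA reads. Both sets were therefore left out in turn.

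Most mitochondrial proteins are made in the cytosol, threaded unfolded through the mitochondrial membranes and folded again in the matrix. The mitochondrial Hsp70 (Hspa9) pulls them in, the Hsp60 and Hsp10 chaperonin (Hspd1 and Hspe1) encloses and folds them, and Trap1 is the Hsp90 of this compartment. Damaged or surplus proteins are unfolded and cut by LONP1 and by ClpXP in the matrix and by AAA proteases in the inner membrane.

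Lonp1 and the chaperonin pair are the genes on which the results turn, and the sequences ahead of their starts are shown for that reason, from RefSeq on GRCm38.p6. Lonp1 lies on the minus strand of chr17:56614297-56626887. The 250 bases ahead of its start, chr17:56626904-56627153, are given 5′ to 3′ on the minus strand, with an E-box (CACGTG) and the core of a cAMP response element (TGACGT) in capitals.
Lonp1 promoter: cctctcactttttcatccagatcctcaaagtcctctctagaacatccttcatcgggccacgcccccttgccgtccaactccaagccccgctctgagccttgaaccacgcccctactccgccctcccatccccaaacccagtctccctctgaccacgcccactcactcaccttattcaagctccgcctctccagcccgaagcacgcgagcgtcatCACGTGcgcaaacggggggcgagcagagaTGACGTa
Searched on both strands, 7.15% of 32851 RefSeq start windows of 300 bases held the E-box letters and 7.51% held TGACGT. Neither is particular to Lonp1 among the listed genes searched. The window of Trap1 held 2 matches to TGACGT, and that of the Hspd1 start at position 55088243 held 1 E-box. The shorter hypoxia element core ACGTG, held by 19.6% of windows, occurred at Lonp1 inside the E-box alone, once on each strand. An NRF1 motif (4.6% of windows), an ETS motif (3.89%) and a CHOP-ATF4 composite element (0.965%) were searched too, with 0 matches at Lonp1. Among the listed genes searched, the NRF1 motif had 2 matches at Spg7 and 1 at the Hspd1 start at position 55088243. The ETS motif and the CHOP-ATF4 composite had 0 matches at all of them.

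Hspd1 and Hspe1 are transcribed away from each other, with 215 bases between one RefSeq start of Hspd1 at position 55087932 and that of Hspe1 at position 55088148 of chromosome 1. Within this stretch, chr1:55088053-55088082 on the plus strand carries a pair of overlapping matches to the heat shock element (TTC, any 2 bases, GAA, any 2 bases, TTC), one on each strand, and the letters they cover are in capitals. The stretch lies ahead of that start of Hspd1 and inside an exon that GENCODE gives to Hspd1.
Hspd1-Hspe1 stretch: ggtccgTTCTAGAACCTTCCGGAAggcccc
That element was held by 0.603% of the start windows. RefSeq start windows were searched for 8 of the 10 genes, 9 windows in all. Those of Hspa9 and Afg3l2 were not searched, so whether these genes hold any of the elements was not tested. The heat shock element was in the windows of Hspe1 and of 1 of the 2 Hspd1 starts. The window of the other Hspd1 start, at position 55088243, did not hold it, and none of the windows of Lonp1, Clpp, Clpx, Trap1, Yme1l1 and Spg7 did. A match is a run of letters and not a measured binding site.

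Lonp1 was at 106, 99.5, 86.7, 106 and 116 units in KPAT tumours 1 to 5, at 93.8, 98.9, 103, 90.9 and 89.7 units in KAT tumours 1 to 5, and at 196, 178, 185, 176 and 172 units in KPT tumours 1 to 5. Every KPAT and KAT tumour lay below every KPT tumour, with the nearest values at 116 units in KPAT 5 and 172 units in KPT 5. The means were 103 ± 10.7 units in KPAT, 95.3 ± 5.74 units in KAT and 181 ± 9.28 units in KPT tumours (SD, n = 5 each). The fold change was 0.565 for KPAT against KPT (log2 -0.82) and 0.526 for KAT against KPT (log2 -0.93). These values chose the gene, so they are described here without a test. Of all tested genes, 3.47% had every KPAT and every KAT tumour below every KPT tumour. Both comparisons use the same 5 KPT tumours.

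Lonp1 was chosen for a low level with little spread in both KPAT and KAT tumours, which favours a small difference between them. KPAT against KAT is therefore a description too, and no p-value is given. The level of Lonp1 differed there by 0.10 on the log2 scale (SE 0.09), and the groups overlapped. Over the alternative settings this log2 difference stayed between 0.06 and 0.16. The spread of Lonp1 within genotypes, a standard deviation of 0.110 on the log2 scale, was part of why the gene was chosen and is a description. Lonp1 was covered by 1583 to 3996 reads per library.

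In whole tumours, fewer cells of a type and less RNA per cell cannot be told apart. Markers of other cell types moved with the genotypes. The summed level of 12 fibroblast markers was 11453 to 22525 units in KPAT, 10980 to 19396 units in KAT and 3464 to 8259 units in KPT tumours, with no overlap of KPAT or KAT with KPT tumours and no marker at 0. By limma, 8 of the 12 rose in KPAT and 12 of the 12 rose in KAT tumours against KPT. Of all tested genes 9.13% rose and 7.4% fell in KPAT, and 15.6% rose and 13.3% fell in KAT. The 12 epithelial markers summed to 8532 to 11252 units in KPAT, 7517 to 12163 units in KAT and 11894 to 20864 units in KPT tumours, and 3 of them fell in KPAT and 6 in KAT tumours against KPT. The 12 macrophage markers summed to 762 to 1355 units in KPAT, 1179 to 2034 units in KAT and 669 to 1064 units in KPT tumours, and 5 rose in KPAT and 8 in KAT tumours. No marker of the epithelial or macrophage list was at 0 in any library. Acinar markers, of the cells in which Cre acted, were low, with sums of 19.1 to 682 units in KPAT, 79.0 to 1025 units in KAT and 48.7 to 224 units in KPT tumours. The part of these cells in the levels of Lonp1 and the other 9 genes was not tested.

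The targeted Trp53 averaged 41.9 ± 9.53 units in KPAT, 125 ± 20.03 units in KAT and 24.3 ± 1.77 units in KPT tumours (SD, n = 5 each), so both genotypes labelled Trp53 fl/fl lay below KAT. Between these 2, Trp53 was higher in KPAT than in KPT tumours (log2 0.76, limma adjusted p = 0.0056). The groups did not overlap, and the cause was not tested. Cdkn2a, which encodes Arf and shares exons between Arf and Ink4a, averaged 622 ± 289 units in KPAT, 426 ± 254 units in KAT and 297 ± 47.1 units in KPT tumours and did not pass in any comparison. A level summed over the gene does not check the deletion of the Arf exon.

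**Figure D1:**
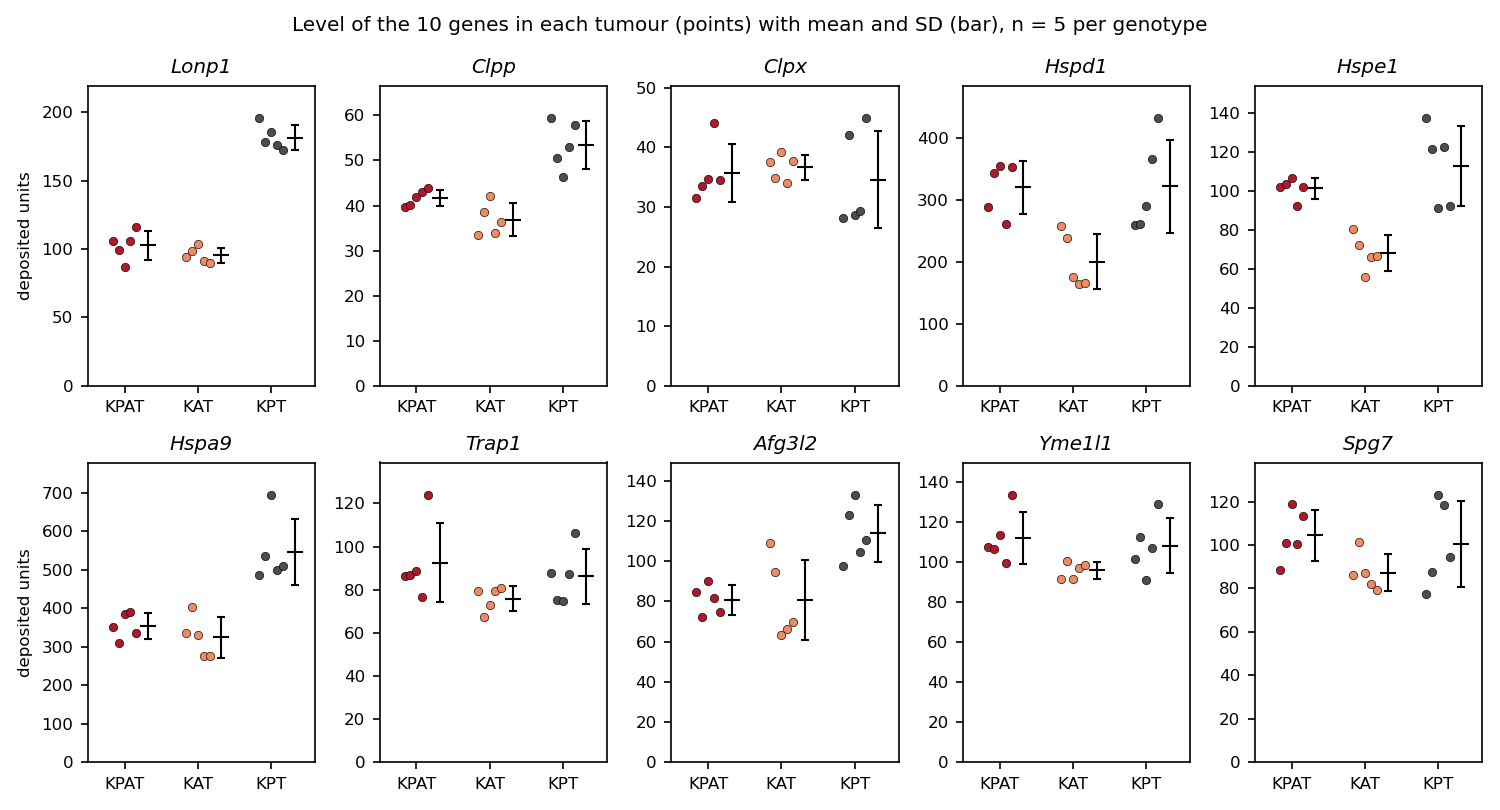
Level of each of the 10 genes (vertical axis, deposited units, starting at 0) in the 5 tumours of each genotype, as points, with the mean and SD as a cross bar. Lonp1 shows a gap between 116 units, its highest KPAT value, and 172 units, its lowest KPT value, while Clpx, Trap1, Yme1l1 and Spg7 overlap between all genotypes.

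Of the other 9 genes, 3 fell in KPAT against KPT tumours (Clpp, Hspa9 and Afg3l2), where 7.4% of all tested genes fell and 9.13% rose. In KAT against KPT tumours 5 fell (Clpp, Hspd1, Hspe1, Hspa9 and Afg3l2), where 13.3% of all tested genes fell and 15.6% rose. Calls in either direction made up 16.5% of tested genes in KPAT and 28.9% in KAT against KPT. None of the 9 rose in either comparison by limma, at an unadjusted p under 0.05, by edgeR or by DESeq2. The groups did not overlap, with the lower level in KPAT or KAT, for 3 of the 9 genes in KPAT against KPT and for 4 in KAT against KPT, beside 4.93% of all tested genes in KPAT and 8.38% in KAT. The median log2 fold change of the 9 genes was 0.01 in KPAT and -0.52 in KAT tumours, beside 0.02 in KPAT and 0.03 in KAT tumours over all tested genes. In KPAT against KAT none of the 9 passed by limma, where 0.0481% of tested genes did, and none by edgeR. Hspd1 and Hspe1 were the 2 at an unadjusted p under 0.05 and the 2 that DESeq2 called there. Over all tested genes limma called 8, with 1798 at an unadjusted p under 0.05, while edgeR called 7 and DESeq2 284. Without the libraries set apart for ribosomal RNA reads, and likewise without those set apart for intestinal and acinar genes, 2 of the 9 fell in KPAT against KPT. Of all tested genes 819 fell there without the former libraries and 804 without the latter, against 1232 with all libraries.

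Clpp and Clpx encode the subunits of the ClpXP protease, in which CLPX unfolds a substrate and feeds it to the chamber of CLPP. Clpp was at 39.6, 40.2, 41.9, 43.0 and 43.9 units in KPAT tumours 1 to 5, at 33.4, 38.5, 42.2, 33.9 and 36.4 units in KAT tumours 1 to 5, and at 59.4, 50.6, 46.3, 53.1 and 57.9 units in KPT tumours 1 to 5. Every KPAT and KAT tumour lay below every KPT tumour. Clpp fell by 0.35 on the log2 scale in KPAT (SE 0.10, limma adjusted p = 0.0257) and by 0.53 in KAT tumours (SE 0.10, limma adjusted p = 0.00166), both against KPT. The KPAT call was lost without KPAT 1, KPAT 2 or KPT 1, without KPT 1 and KAT 1 together, with only the groups compared in the fit, and with replicate numbers as a block, and its highest adjusted p was 0.0657. After Lonp1, Clpp had the smallest spread within genotypes among the 10 genes, with a standard deviation of 0.121 on the log2 scale.

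Clpx did not follow Clpp. It was at 31.5 to 44.1 units in KPAT, at 34.1 to 39.2 units in KAT and at 28.1 to 44.9 units in KPT tumours, and the groups overlapped. Its log2 fold changes were 0.07 in KPAT and 0.11 in KAT tumours against KPT (SE 0.15 each, limma adjusted p = 0.795 and 0.59). The ratio of Clpp to Clpx units had a median of 1.21 in KPAT, 0.996 in KAT and 1.62 in KPT tumours. Its ranges were 0.974 to 1.27 in KPAT, 0.888 to 1.11 in KAT and 1.20 to 2.11 in KPT tumours, so that KAT tumours lay below KPT tumours while KPAT and KPT tumours overlapped. KPT tumours fell into a low and a high Clpx set, with 28.1, 28.7 and 29.3 units in KPT 1, 3 and 4, and 42.1 and 44.9 units in KPT 2 and 5.

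The AAA proteases of the inner membrane face opposite ways. YME1L1 works towards the intermembrane space, and AFG3L2, alone or with SPG7 (paraplegin), works towards the matrix. Afg3l2 was at 84.5, 72.2, 90.1, 81.9 and 74.8 units in KPAT tumours 1 to 5, at 109, 94.4, 63.5, 66.5 and 69.7 units in KAT tumours 1 to 5, and at 97.8, 123, 133, 105 and 110.4 units in KPT tumours 1 to 5. All KPAT tumours lay below all KPT tumours, while KAT 1 lay above KPT 1 and KPT 4. Afg3l2 fell by 0.49 in KPAT (SE 0.15, limma adjusted p = 0.0349) and by 0.52 in KAT tumours (SE 0.15, limma adjusted p = 0.017) on the log2 scale against KPT.

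The Afg3l2 calls were less stable than those of Hspa9. In KPAT the call was lost without KPAT 2, KPAT 4, KPAT 5, KPT 2 or KPT 3, without KPT 3, KAT 2 and KPAT 5 together, with quantile scaling and with the replicate block, and the adjusted p reached 0.124. In KAT it was lost with quantile scaling, at an adjusted p of 0.0524, over a range from 0.00172.

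Yme1l1 and Spg7 did not pass in any comparison. Yme1l1 was at 99.5 to 134 units in KPAT, at 91.4 to 101 units in KAT and at 91.3 to 129 units in KPT tumours. Spg7 was at 88.6 to 119 units in KPAT, at 79.5 to 101 units in KAT and at 77.6 to 123 units in KPT tumours. Both genes overlapped between all genotypes, and their log2 fold changes against KPT were 0.05 for Yme1l1 and 0.07 for Spg7 in KPAT, and -0.17 for Yme1l1 and -0.18 for Spg7 in KAT tumours. The ratio of Afg3l2 to Spg7 units, of interest because the proteins assemble with each other, had a median of 0.758 in KPAT, 0.876 in KAT and 1.17 in KPT tumours, and the ranges of the genotypes overlapped.

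Hspa9, the mitochondrial Hsp70 that drives import and folding, was at 351, 311, 386, 390.4 and 336 units in KPAT tumours 1 to 5, at 336, 404, 331, 276 and 276 units in KAT tumours 1 to 5, and at 487, 535, 696, 499 and 511 units in KPT tumours 1 to 5. As with Lonp1, every KPAT and KAT tumour lay below every KPT tumour. Hspa9 fell by 0.61 on the log2 scale in KPAT (SE 0.13, limma adjusted p = 0.00814) and by 0.75 in KAT tumours (SE 0.13, limma adjusted p = 0.00111), both against KPT. KPT 3 stood highest, and without it and KAT 2 and KPAT 5 both calls held. Across the 29 alternative settings the Hspa9 calls were kept in both comparisons, with adjusted p up to 0.0235 in KPAT and 0.00624 in KAT tumours.

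Hspd1 and Hspe1, the chaperonin and its lid, separated KAT from the other genotypes. Hspd1 was at 289, 345, 355, 262 and 353 units in KPAT tumours 1 to 5, at 259, 238, 175, 165 and 167 units in KAT tumours 1 to 5, and at 260.5, 260.7, 291, 366 and 432 units in KPT tumours 1 to 5. Every KAT tumour lay below every KPAT and every KPT tumour, though KAT 1 lay close to KPAT 4 and to KPT 1 and 2. Hspe1 was at 102, 103, 107, 92.4 and 102 units in KPAT tumours 1 to 5, at 80.6, 72.3, 55.6, 65.8 and 66.5 units in KAT tumours 1 to 5, and at 137, 121, 90.9, 122 and 92.0 units in KPT tumours 1 to 5. Again every KAT tumour lay below every tumour of the other genotypes, while KPAT and KPT tumours overlapped.

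In KAT against KPT, Hspd1 fell by 0.68 (SE 0.17, limma adjusted p = 0.00973) and Hspe1 by 0.72 (SE 0.13, limma adjusted p = 0.00134) on the log2 scale. In KPAT against KPT the log2 fold changes were 0.01 for Hspd1 (limma adjusted p = 0.969) and -0.14 for Hspe1 (limma adjusted p = 0.484). The difference between KPAT and KAT was itself tested. It was 0.69 for Hspd1 (SE 0.17, limma adjusted p = 0.185) and 0.58 for Hspe1 (SE 0.13, limma adjusted p = 0.128), so neither passed over all genes, and 1.42% of tested genes had every KPAT tumour above every KAT tumour. With array weights or DESeq2 both differences passed, over a range of adjusted p from 0.0124 to 0.443 for Hspd1 and from 0.00793 to 0.349 for Hspe1.

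The exons of Hspd1 and Hspe1 overlap on opposite strands, those of Trap1 overlap Dnase1, and how strand was treated in counting is not given in the sources used here, so reads in the overlaps cannot be told apart. Of 23 named pseudogene copies of Hspd1, 3 were in the table and held 0.258 to 0.713% of the level of Hspd1. Adding them left the log2 difference between KPAT and KAT at 0.69. For the 7 named copies of Hspe1 and the 1 copy of Hspa9, how their reads were assigned is not known.

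Trap1 was at 76.7 to 124 units in KPAT, at 67.1 to 80.7 units in KAT and at 74.9 to 106 units in KPT tumours, and it did not pass in any comparison. Its log2 fold changes were 0.09 in KPAT and -0.18 in KAT tumours against KPT (SE 0.13 each). Its highest value, 124 units in KPAT 5, stood apart from the next KPAT tumour at 88.4 units.

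**Figure D2:**
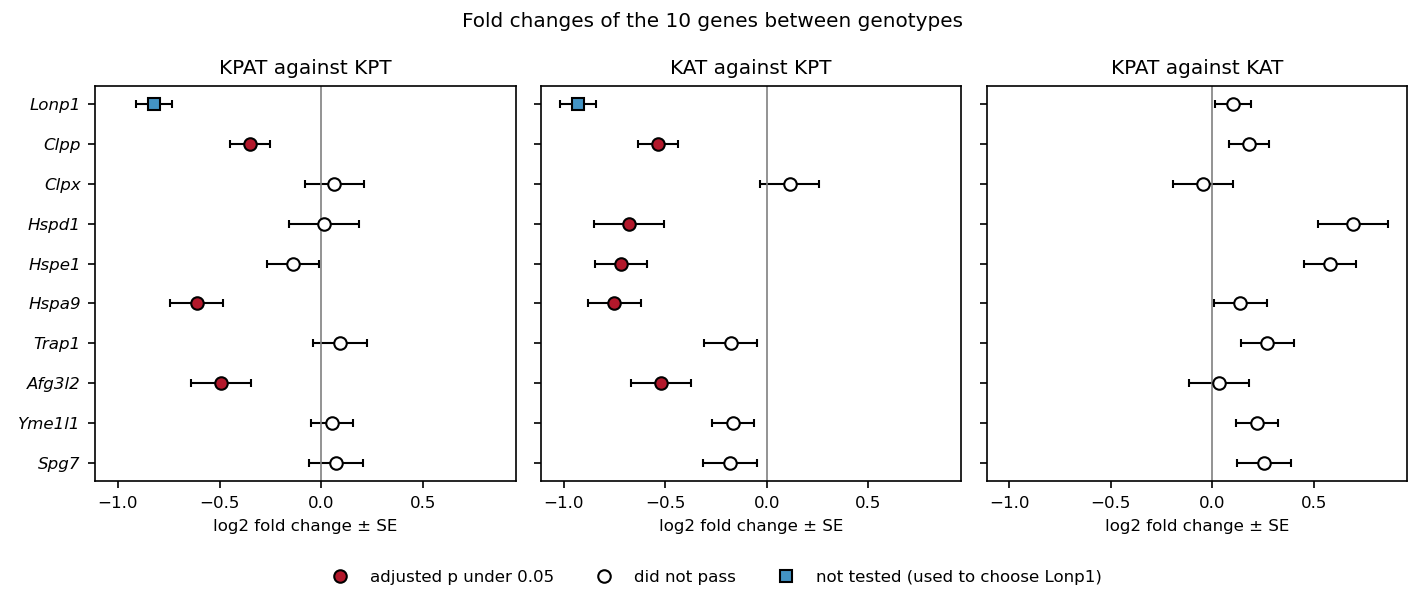
Log2 fold change with its SE (horizontal axis) of each of the 10 genes in KPAT against KPT, KAT against KPT and KPAT against KAT; filled points passed limma's adjusted p of 0.05, open points did not, and blue squares mark Lonp1 where it was not tested. Lonp1 is drawn as an open point in KPAT against KAT, where its choice favoured a small difference. Hspd1 and Hspe1 lie near 0 in KPAT against KPT, at 0.01 and -0.14, and at -0.68 and -0.72 in KAT against KPT.

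Levels were set between genes per kilobase, over the joined length of all annotated exons of a gene. That length, 9874 bases for Afg3l2 and 8009 for Yme1l1, can exceed that of the transcripts present, so the order depends in part on the annotation. On this scale 3 of the 4 chaperones led. Averaged over the 15 tumours, Hspd1 stood at 106, Hspa9 at 94.7 and Hspe1 at 63.8 units per kb. Clpp followed at 36.0, Trap1 at 33.0 and Lonp1 at 28.9 units per kb, and Spg7 at 21.5, Yme1l1 at 13.2, Clpx at 10.2 and Afg3l2 at 9.29 units per kb came last. Lonp1 averaged 23.5 units per kb in KPAT, 21.8 units per kb in KAT and 41.5 units per kb in KPT tumours. In KPAT tumours it was near Spg7 at 23.1 units per kb, and in KPT tumours near Clpp at 43.7 units per kb.

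The 10 genes were also set against each other tumour by tumour. The log2 level of Lonp1 minus the mean log2 level of the other 9 was -0.34 to 0.10 in KPAT, -0.01 to 0.31 in KAT and 0.46 to 0.86 in KPT tumours, a difference that is read only between tumours since it is not per length. These values rest on the levels that chose Lonp1 and are a description. KAT 4 was under the median of the 15 tumours for all 10 genes, and KAT 1, KAT 3 and KAT 5 for 8 of 10. KPT 4 and KPT 5 were under it for 1 of 10. Among the 45 pairs of genes, the ratio of Trap1 to Yme1l1 varied least over the 15 tumours, with a standard deviation of 0.124 on the log2 scale, although single-gene values were 0.220 for Trap1 and 0.166 for Yme1l1. The ratio of Lonp1 to Clpx varied most, at 0.535, with medians of 2.97 in KPAT, 2.64 in KAT and 6.0 in KPT tumours.

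**Figure D3:**
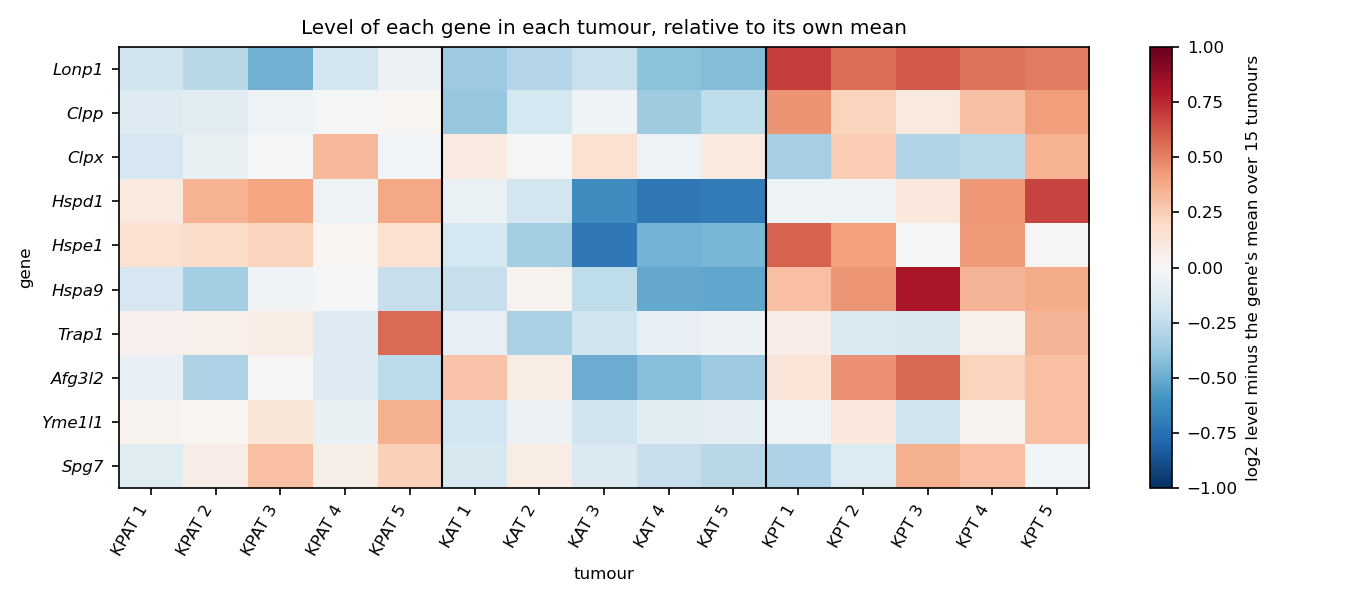
Log2 level of each of the 10 genes (rows) in each of the 15 tumours (columns, grouped by genotype), minus the mean of that gene over all 15 tumours; red is above and blue below that mean. Lonp1 is below its mean in all KPAT and KAT tumours and above it in all KPT tumours, and KAT 4 is below the median of the 15 tumours for all 10 genes.

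The genes whose pattern over the 15 tumours was most like that of Lonp1 were ranked by the root mean square difference of log2 levels, each minus its own mean. Mrpl45, a protein of the mitochondrial ribosome, was nearest at 0.105, followed by Rpl8, of the cytosolic ribosome, at 0.111, Ncaph2, a condensin subunit, at 0.112, Mrps18a at 0.116 and Tmem87a, a membrane protein, at 0.128. Mrpl45 averaged 41.3 ± 4.99 units in KPAT, 35.2 ± 2.48 units in KAT and 67.5 ± 4.28 units in KPT tumours (SD, n = 5 each), and its ranges of 36.7 to 47.9 units in KPAT and 32.7 to 37.9 units in KAT lay below 62.0 units, its lowest KPT value. Among the other 9 genes Hspa9 was nearest to Lonp1, at rank 151 of 16647 with 0.212, then Clpp at rank 308 with 0.238 and Afg3l2 at rank 1018 with 0.306. Clpx was farthest, at rank 6028 with 0.516. The points share their libraries, and these values are descriptions.

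Genes that work with the 10 were counted in lists chosen by function with earlier results of these data known. Counts in this and the following lists are set beside all tested genes, of which 7.4% fell and 9.13% rose in KPAT against KPT. In KAT against KPT, 13.3% of all tested genes fell and 15.6% rose. These shares are of the fit with all libraries. With 1 library left out, the tested genes that fell numbered 770 to 1291 in KPAT, against 1232 with all libraries. In KAT they numbered 1632 to 2229, against 2206 with all libraries. Of 14 cochaperones, scaffolds and other partners of the listed proteases and chaperones, 7 (50%) fell and 0 rose in KPAT and likewise in KAT tumours against KPT. Their median log2 fold change was -0.40 in KPAT and -0.42 in KAT tumours. The KPAT count was 4 without KPAT 3, without KPT 1 and without KPT 2, and 3 without KPT 3, KAT 2 and KPAT 5. Of all tested genes, 881 fell in KPAT without KPAT 3, 827 without KPT 1 and 866 without KPT 2. Without KPT 3, KAT 2 and KPAT 5, 819 did. Stoml2, a membrane scaffold that holds YME1L1, averaged 37.7 ± 1.63 units in KPAT, 32.8 ± 3.56 units in KAT and 54.8 ± 5.58 units in KPT tumours, with limma adjusted p of 0.0052 in KPAT and 0.000328 in KAT. Grpel1, the nucleotide exchange factor of HSPA9, averaged 52.9 ± 4.06 units in KPAT and 70.9 ± 4.51 units in KPT tumours (log2 -0.42, limma adjusted p = 0.0102). Phb, a prohibitin of the ring that binds the matrix-facing AAA proteases, averaged 80.3 ± 4.71 units in KAT and 131 ± 14.2 units in KPT tumours (log2 -0.71, limma adjusted p = 0.000299).

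Of 15 other mitochondrial proteases and peptidases, 2 (13.3%) fell and 0 rose in KPAT against KPT, where 7.4% of all tested genes fell. In KAT against KPT 3 (20%) fell and 2 (13.3%) rose, where 13.3% of all tested genes fell and 15.6% rose. The medians of the list were -0.13 in KPAT and -0.21 in KAT on the log2 scale. Without KPT 4, 2 rose in KPAT. Immp2l, a peptidase of the inner membrane, had fold changes of 0.274 in KPAT and 0.348 in KAT at a mean of 2.41 units over all tumours, a low level. Afg3l1, a paralogue of Afg3l2 that is active in mice, averaged 76.9 ± 5.31 units in KPAT, 58.4 ± 4.97 units in KAT and 104 ± 9.48 units in KPT tumours, and it fell by 0.44 in KPAT (limma adjusted p = 0.00863) and by 0.83 in KAT (limma adjusted p = 0.000128) on the log2 scale. Lactb and Htra2 were the ones that rose in KAT, by 0.66 and 0.56 on the log2 scale. The Htra2 call was lost without any 1 of KAT 1, KAT 2, KAT 3, KPT 1 and KPT 5, with adjusted p up to 0.122, and the Lactb call without KPT 3, KAT 2 and KPAT 5, at 0.0588.

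Import machinery, whose products deliver the substrates of Hspa9, had 25 tested genes. In KPAT tumours 4 (16%) fell and 0 rose, where 7.4% of all tested genes fell. In KAT tumours 10 (40%) fell and 0 rose, where 13.3% of all tested genes fell. Median log2 fold changes were -0.15 in KPAT and -0.34 in KAT. Samm50, which inserts proteins into the outer membrane, averaged 107 ± 8.10 units in KPAT, 92.0 ± 6.99 units in KAT and 160.2 ± 27.7 units in KPT tumours (limma adjusted p = 0.00578 in KPAT and 0.000383 in KAT). Timm50, a receptor of the inner membrane translocase, fell by 0.43 in KPAT (limma adjusted p = 0.0123) and by 0.64 in KAT (limma adjusted p = 0.000679) on the log2 scale.

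Genes of the proteins that these proteases and chaperones handle were counted next. Of 77 nuclear-coded subunits of the respiratory chain and ATP synthase, 28 (36.4%) fell and 0 rose in KPAT against KPT. In KAT against KPT 50 (64.9%) fell and 1 rose. Of all tested genes 7.4% fell in KPAT and 13.3% in KAT. Median log2 fold changes of the subunits were -0.36 in KPAT and -0.46 in KAT. The KPAT count was 17 without KPAT 2 and 18 without KPAT 3, KPT 1 or KPT 2, and the KAT count was 30 without KAT 3 or KPT 1 and 32 without KAT 5 or KPT 2. Without KPT 3, KAT 2 and KPAT 5 these counts were 15 in KPAT and 33 in KAT. Over all tested genes, those that fell in KPAT went from 1232 to 770 without KPAT 2 and 881 without KPAT 3. They were 827 without KPT 1 and 866 without KPT 2. Those that fell in KAT went from 2206 to 1759 without KAT 3 and 1772 without KPT 1. They were 1679 without KAT 5 and 1842 without KPT 2. Without KPT 3, KAT 2 and KPAT 5, 819 of all tested genes fell in KPAT and 1882 in KAT. Cox5a, the 1 that rose in KAT, lost its call without any 1 of KAT 1, KAT 2, KAT 4 and KPT 5, with adjusted p up to 0.0814. Cox4i1, a core subunit of cytochrome c oxidase, averaged 231 ± 30.5 units in KPAT, 206 ± 25.2 units in KAT and 357 ± 47.1 units in KPT tumours. Of 77 mitochondrial ribosomal protein genes, 20 (26%) fell and 0 rose in KPAT and 38 (49.4%) fell and 0 rose in KAT tumours. Their medians were -0.25 in KPAT and -0.41 in KAT. The KPAT count was 13 without KPT 1 and KAT 1, where 804 of all tested genes fell, against 1232 with all libraries. Mrps35 averaged 32.2 ± 3.35 units in KPAT, 27.7 ± 1.83 units in KAT and 51.5 ± 2.42 units in KPT tumours.

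Of the 12 tested protein genes of mitochondrial DNA, none passed in KPAT against KPT by limma or edgeR, while 2 fell by DESeq2. At an unadjusted p under 0.05 by limma, 2 were lower and 1 was higher in KPAT. Without KPT 3, 2 fell by limma, and without KPAT 4, 1. In KAT tumours mt-Atp6 and mt-Co3 fell, 16.7% of the list, where 13.3% of all tested genes fell. Over all tumours mt-Atp6 averaged 12.8 and mt-Co3 22.8 units, beside 265 units for the nuclear-coded Cox4i1. How reads of mitochondrial DNA were treated in counting is not given in the sources used here. What part of the mitochondrial transcripts this list measures is therefore not known. The levels of mt-Atp6 and mt-Co3 were low, and uneven in KPT. mt-Atp6 averaged 6.94 ± 1.86 units in KAT and 20.3 ± 9.39 units in KPT tumours, and the groups overlapped. mt-Co3 averaged 12.8 ± 1.63 units in KAT and 37.8 ± 28.1 units in KPT tumours. The list had medians of -0.09 in KPAT and -0.29 in KAT on the log2 scale. Of 14 matrix enzymes and membrane carriers and porins, 1 (7.14%) rose and 1 (7.14%) fell in KPAT, and 1 (7.14%) rose and 6 (42.9%) fell in KAT tumours. Of all tested genes 9.13% rose and 7.4% fell in KPAT, and 15.6% rose and 13.3% fell in KAT. The KAT count of those that fell was 3 without KAT 5, KPT 1 or KPT 5. Of all tested genes, 1679 fell in KAT without KAT 5, 1772 without KPT 1 and 2116 without KPT 5, against 2206 with all libraries. The calls in KPAT, Idh3a upward and Vdac1 downward, were lost in 8 and 10 of the 17 fits that left out libraries, and that of Idh3a in KAT in 11. Vdac1, the main porin of the outer membrane, averaged 200.2 ± 41.1 units in KAT and 358 ± 70.8 units in KPT tumours (log2 -0.84, limma adjusted p = 0.00175).

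The tested genes of the mitochondrial stress response numbered 19. They encode signalling proteins, transcription factors and targets of the response to disturbed matrix folding. In KPAT tumours 3 (15.8%) fell and 0 rose, where 7.4% of all tested genes fell. In KAT tumours 4 (21.1%) fell and 0 rose, where 13.3% of all tested genes fell. Medians were -0.24 in KPAT and -0.35 in KAT on the log2 scale. The KPAT count was 1 with quantile scaling and 1 with only the compared groups in the fit. Of all tested genes 1138 fell in KPAT with quantile scaling and 825 with only the compared groups, against 1232 in the main fit. Ddit3, which encodes the stress factor CHOP, averaged 10.5 ± 1.76 units in KPAT, 10.4 ± 3.07 units in KAT and 32.2 ± 13.2 units in KPT tumours, and it passed in both (limma adjusted p = 0.00736 in KPAT and 0.00252 in KAT) although the groups overlapped. Atf4, the central factor of the integrated stress response, averaged 176 ± 24.9 units in KPAT and 229 ± 15.01 units in KPT tumours (log2 -0.39, limma adjusted p = 0.0191). Psat1, a serine synthesis enzyme under ATF4, averaged 21.6 ± 6.62 units in KAT and 53.7 ± 24.5 units in KPT tumours (limma adjusted p = 0.00855).

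**Figure D4:**
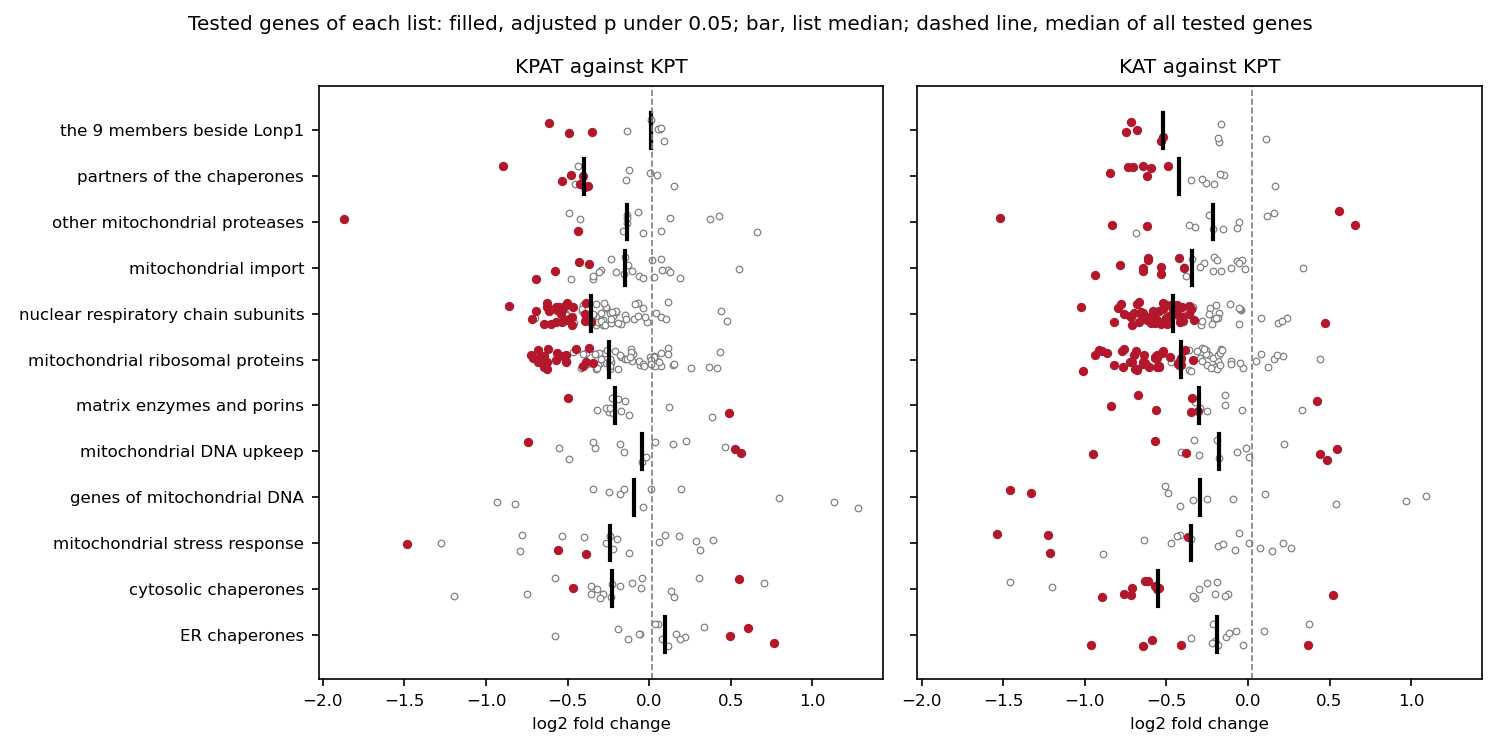
Log2 fold changes (horizontal axis) of the tested genes of each list in KPAT against KPT and in KAT against KPT; filled points passed limma's adjusted p of 0.05, black bars are list medians and the dashed line is the median of all tested genes. The respiratory chain list has medians of -0.36 in KPAT and -0.46 in KAT, beside 0.02 in KPAT and 0.03 in KAT over all tested genes.

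Upkeep and transcription of mitochondrial DNA, to which LONP1 contributes by degrading the packaging factor TFAM, did not move one way. Of 15 genes, 2 (13.3%) rose and 1 (6.67%) fell in KPAT, and 3 (20%) rose and 3 (20%) fell in KAT tumours against KPT. Of all tested genes 9.13% rose and 7.4% fell in KPAT, and 15.6% rose and 13.3% fell in KAT. In KPAT 2 of the 15 fell without KPAT 3 or without KPT 1. Polrmt, the RNA polymerase of mitochondria, averaged 32.6 ± 2.46 units in KPAT, 33.3 ± 3.06 units in KAT and 22.9 ± 3.57 units in KPT tumours and rose in both (limma adjusted p = 0.011 in KPAT and 0.00436 in KAT). Tfb2m, its initiation factor, rose by 0.56 in KPAT and by 0.44 in KAT on the log2 scale, while Top1mt, a mitochondrial topoisomerase, fell by 0.74 in KPAT and by 0.95 in KAT.

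Chaperones of other compartments were counted for comparison. Of 20 cytosolic chaperones, 1 (5%) rose and 1 (5%) fell in KPAT, and 1 (5%) rose and 9 (45%) fell in KAT tumours against KPT. Of all tested genes 9.13% rose and 7.4% fell in KPAT, and 15.6% rose and 13.3% fell in KAT. The medians of the list were -0.23 in KPAT and -0.55 in KAT on the log2 scale. In KPAT 3 rose without KPAT 4, 3 fell without KPAT 2 and 2 fell without KPT 3. Cct5, a subunit of the cytosolic chaperonin, averaged 256 ± 22.1 units in KPAT, 216 ± 20.5 units in KAT and 355 ± 38.1 units in KPT tumours and fell in both, while Bag3, an HSP70 cochaperone, rose by 0.55 in KPAT and by 0.52 in KAT. Of 16 folding genes of the endoplasmic reticulum, 3 (18.8%) rose and 0 fell in KPAT against KPT. In KAT against KPT 1 (6.25%) rose and 4 (25%) fell. Their medians were 0.10 in KPAT and -0.19 in KAT. With quantile scaling 1 fell in KAT. The KPAT count of those that rose was 1 without KPAT 2, where 916 of all tested genes rose, against 1520 with all libraries. Dnajc3, the 1 that rose in KAT, lost its call in 12 of 17 fits that left out libraries, 10 of them for a single library, with adjusted p up to 0.11. Hyou1, an Hsp70 of that compartment, averaged 174 ± 48.8 units in KPAT and 101 ± 19.5 units in KPT tumours (log2 0.77, limma adjusted p = 0.0136).

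Receptors of mitophagy, the removal of whole mitochondria, were measured as well. Bnip3, one of them, averaged 11.7 ± 3.59 units in KPAT, 19.1 ± 17.1 units in KAT and 80.4 ± 44.8 units in KPT tumours (limma adjusted p = 0.00758 in KPAT and 0.00736 in KAT), and Bnip3l averaged 121 ± 8.92 units in KPAT, 120 ± 13.9 units in KAT and 199 ± 47.3 units in KPT tumours (limma adjusted p = 0.00721 in KPAT and 0.00247 in KAT). Of the 16 genes of mitochondrial fusion, fission and mitophagy, 3 (18.8%) fell in KPAT and 2 (12.5%) in KAT tumours, and 0 rose. Of all tested genes 7.4% fell in KPAT and 13.3% in KAT, so the KAT share was not above that of all genes. Without KPAT 4, 5 fell in KPAT. Of 9 factors of mitochondrial biogenesis, Yy1 alone passed by limma on the authors' scaling with a minimum mean of 10, with 91.1 ± 8.85 units in KPAT, 90.4 ± 4.19 units in KAT and 161 ± 22.5 units in KPT tumours (limma adjusted p = 0.00126 in KPAT and 0.000255 in KAT). That was 11.1% of the list in each comparison, beside the 7.4% in KPAT and 13.3% in KAT of all tested genes that fell. In KPAT 2 of them fell without KPAT 3, KPAT 4, KAT 2 or KPT 4, and 1 rose without KAT 2 or KAT 5. In KPAT 3 fell with median-of-ratios scaling, with a minimum mean of 50 and with DESeq2, and 1 rose with DESeq2 and with only the compared groups in the fit.

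Lonp1 and Clpp lie near each other on chromosome 17, with Clpp at chr17:56990305-56996188. Of the 38 tested genes within 500 kb of Lonp1, Clpp among them, 9 (23.7%) fell and 0 rose in KPAT against KPT. In KAT against KPT 9 (23.7%) fell and 1 rose (2 rose without KPAT 3, KPT 1 or KPT 3). Of all tested genes 7.4% fell in KPAT and 13.3% in KAT. Median log2 fold changes of these neighbours were -0.30 in KPAT and -0.23 in KAT. Rpl36, a protein of the cytosolic ribosome, averaged 333 ± 37.0 units in KPAT, 301 ± 48.3 units in KAT and 656 ± 181 units in KPT tumours. Crb3, a polarity protein of epithelia, averaged 42.2 ± 4.59 units in KAT and 70.1 ± 10.5 units in KPT tumours.

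In KPAT against KAT, no gene of these lists passed by limma or by edgeR. At an unadjusted p under 0.05, 10 of the 20 cytosolic chaperones, 8 of the 16 folding genes of the endoplasmic reticulum and 14 of the 77 mitochondrial ribosomal protein genes were higher in KPAT tumours, and 0 of each were lower. Of the 14 matrix enzymes, carriers and porins 4 were higher, as were 4 of the 25 import genes, and 0 of each were lower. Of the 77 nuclear-coded respiratory chain subunits 0 were higher and 0 lower, likewise for the 12 genes of mitochondrial DNA and the 9 biogenesis factors. Of the 16 fusion, fission and mitophagy genes 0 were higher and 1 lower. Of all tested genes, 4.79% were higher in KPAT at that threshold. The median log2 differences between KPAT and KAT were 0.32 for the cytosolic chaperones, 0.37 for the endoplasmic reticulum genes, 0.18 for the mitochondrial ribosomal protein genes and 0.22 for the 9 genes beside Lonp1, against -0.003 over all tested genes. By DESeq2, 2 of the cytosolic chaperones, 2 of the endoplasmic reticulum genes and 3 of the mitochondrial ribosomal protein genes were higher in KPAT, beside 0.594% of the genes that it gave an adjusted p.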

How the data were processed

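Per the labels' protocols, tumour RNA went into TruSeq libraries that were read on a HiSeq4000. The submitters' processing notes name HISAT2 2.0.4 and the mouse build mm10 (GRCm38). How reads were counted, whether by strand, and how counts were normalised is not given in the sources used here. In the deposited table each gene has a signal value that, judged from the values, is a whole read count over a factor of its library: multiplied back, 100% of the authors' signal values lay within 0.01 of a whole number. No columns were left unused. Symbols came from GENCODE M21 on GRCm38 for 20585 of 20636 gene IDs.

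The design assumed values on the scale of reads, so the deposited ones were multiplied by 19.478 for all libraries. Genes with a mean of at least 10 were tested (16648). One limma 3.58.1 fit (R 4.3.3) covered the log2(value + 1) levels of the 15 libraries, with a mean for each genotype and a trended prior variance; its two-sided p-values were adjusted by Benjamini and Hochberg's method and called under 0.05, and fold changes are on that scale. The count tests on recovered reads, edgeR 4.0.16 and DESeq2 1.42.0, called 2706 and 3861 genes in KPAT against KPT and 4684 and 5712 in KAT against KPT, beside limma's 2752 and 4805. Counting error is smallest for the genes with most reads.

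The 10 genes and all lists were chosen with earlier results of these data known. Named beside the 10 are, for each list and comparison, up to 2 genes with the smallest p in each direction, the 5 genes nearest to Lonp1 in pattern, and Trp53 and Cdkn2a. No libraries of a group agreed within sampling noise. The labels give the replicates as separate samples and do not say how mice relate to them, so p-values measure the spread between these samples. One further allele that all genotypes share is not reported here. Nothing in the labels pairs same-numbered libraries, and they were not treated as pairs.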

Additional observations from a re-analysis of the deposited data

Results flagged for a closer look

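A check for single tumours far from the rest of their genotype was run over the 10 genes in 3 genotypes, 30 sets of 5 tumours, and it marks about 1 in 20 such sets by chance. It marked 3. Clpx was at 44.1 units in KPAT 4, with the nearest KPAT tumour at 34.8 units. Hspa9 was at 696 units in KPT 3, with the nearest KPT tumour at 535 units, and its fall in KPAT and KAT tumours was also called without KPT 3. Trap1 was at 124 units in KPAT 5, with the nearest KPAT tumour at 88.4 units. KPT 3 and KPAT 5 are among the libraries that had stood apart for ribosomal RNA reads, whose part in these values was not tested.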

How the results depend on the processing

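The count of genes called in KAT against KPT kept within 1.5 times of 4805 under all alternatives. In KPAT against KPT it was 2752, and 1811 with only the compared groups in the fit, 1735 without KPT 3, KAT 2 and KPAT 5, and 1686 (without KPAT 2) to 2896 (without KPT 4) with 1 library left out. In KPAT against KAT it was 8, and 17 with quantile scaling, 15 with only the compared groups, 17 without KPT 3, KAT 2 and KPAT 5, 515 with array weights, 284 with DESeq2, and 7 to 36 with 1 library left out, 36 being without KAT 2. The causes were not tested. Lonp1 stayed between -0.87 and -0.75 in KPAT and between -0.97 and -0.81 in KAT against KPT on the log2 scale.

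Signs turned only for values that no setting called. In KPAT against KPT, leaving out 1 library gave -0.0566 to 0.1261 for Hspd1, -0.0135 to 0.167 for Clpx, -0.0183 to 0.17 for Trap1, -0.0127 to 0.1177 for Yme1l1 and -0.0134 to 0.1531 for Spg7. Without KPT 1 and KAT 1 the values were -0.0566 for Hspd1, -0.0019 for Clpx and -0.0134 for Spg7, and without KPT 3, KAT 2 and KPAT 5 they were -0.0539 for Hspd1, -0.0663 for Trap1 and -0.0722 for Yme1l1. Hspd1 was at -0.0179 with DESeq2. Afg3l2 in KPAT against KAT was at -0.0093 with quantile scaling, -0.006 with edgeR, -0.0045 with DESeq2, and -0.0468 to 0.1476 with 1 library left out.

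The replicate numbers did not pair the tumours: the correlation of deviations from group means between same-numbered libraries was -0.209 to 0.246 and over 0.1 in 5 of 15 pairs. Each library was compared with those of another genotype, and in 7 of 30 such comparisons it correlated best with its own number. With the replicate block 2248 genes were called in KPAT against KPT, 4313 in KAT against KPT and 7 in KPAT against KAT.

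DESeq2 called more genes than limma over all tested genes: 2791 against 2206 lower in KAT and 1892 against 1232 lower in KPAT, both against KPT. It did so in some lists as well: 17 against 9 lower neighbours of Lonp1 in KAT, 5 against 2 lower mitophagy and dynamics genes in KAT, and 4 against 1 lower cytosolic chaperones in KPAT.

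Depth limits the low genes most, such as Immp2l at 2.41 units.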
